A study of Mus musculus with 40 samples.

Results

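Collagens are secreted or membrane-bound proteins in which chains with a repeated glycine motif wind around each other into a stiff helix. Fibrillar collagens form the fibrils of connective tissue, type IV collagens form the sheet-like network of basement membranes around vessels and under epithelia, and the others decorate fibrils, build short networks or filaments, or span cell membranes. In brain most collagen belongs to the vascular basement membrane, the meninges and the stroma of the choroid plexus, and a few members are made by neurons, such as Col25a1 and Col19a1. Collagen genes were taken as every row of the count table whose symbol is Col, a number, a and a number, provided that its counts summed to 20 or more across the mice. All 44 rows with such a symbol, of 40853 rows in the table, met the sum and were among the 28449 genes tested. The lowest sum was 236 counts, for Col10a1, so no collagen lay near the limit. The 44 genes encode chains of 27 collagen types. By class, 11 genes were fibrillar, 6 were type IV and 27 were other.

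RNA-seq of hippocampus was done on 18 female and 22 male mice, with 1 library per mouse, to ask what loss of the histone variant H2A.Z and its replacement with forms of H2A.Z.1 do to gene expression. By the methods of the study, viruses were injected into both hippocampi of mice with loxP sites in the genes for H2A.Z.1 and H2A.Z.2, although the labels call the Myc mice wild type. Ages are not given, and Cre stood under the synapsin promoter, which is active in neurons. KO mice (4 females, 4 males; KD in the labels) received Cre with a virus for a 3xMyc tag and GFP. WT mice (4 females, 5 males) received Cre with 3xMyc-tagged H2A.Z.1 under a CMV promoter, KA mice (4 females, 4 males) Cre with H2A.Z.1 whose N-terminal lysines are alanine, and KQ mice (3 females, 5 males) Cre with H2A.Z.1 whose lysines are glutamine. Myc mice (3 females, 4 males) received the 3xMyc and GFP virus without Cre. Mice are named by sex, group and sample number. For use as a covariate the sample numbers were grouped in ranges of 1 to 20, 21 to 40 and 41 to 46. The last range holds males only, and the labels do not say what the ranges stand for.

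Total counts were 24342921 to 45982772 per library (median 36417111), at which a single count is worth 0.0219 to 0.0432 CPM, the count scaled to the TMM-adjusted size of the library. H2az1, the gene for H2A.Z.1, stood at 28.1 to 36.3 CPM in female KO and 28.1 to 34.5 CPM in female Myc mice, and at 17.7 to 37.6 CPM in male KO and 27.0 to 37.2 CPM in male Myc mice. H2az2, the gene for H2A.Z.2, stood at 26.2 to 30.0 CPM in female KO and 19.4 to 26.0 CPM in female Myc mice, and at 20.8 to 29.3 CPM in male KO and 20.6 to 26.5 CPM in male Myc mice. H2az1 thus overlapped in both sexes, and H2az2 overlapped in males and was higher in every KO female than in any Myc female, against the label. The deletion was not checked by these whole-gene counts of bulk tissue, and KO stands throughout for the libraries labelled KD. The study itself reported lower mRNA of H2A.Z.1 in KO mice and of H2A.Z.2 in every Cre group. It called the degree small, which it held likely to reflect low sensitivity for a neuronal knockout in bulk tissue. In cultured neurons of floxed mice it reported that Cre robustly lowered H2A.Z. All 10 listed markers of hippocampal neurons were above 0 in each library. Chi-square tests of the counts of 2 mice of the same group gave 8.16 to 286 per degree of freedom, with the highest for female Myc mice 11 and 32. Ttr, the main transcript of choroid plexus epithelium, was above 1000 CPM in 4 mice, female KO mice 14 and 33, female WT mouse 20 and female KQ mouse 17. Results that rest on these mice are given with and without them.

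The promoters of 2 type IV gene pairs are shown because the pair Col4a5 and Col4a6 rose in KO mice and the pair Col4a1 and Col4a2 did not pass the test. The genes of each pair lie head to head, and a promoter here is the RefSeq window of 300 bases around the start site in build GRCm38.p6, on the strand of the gene. Capitals mark the GC box GGGCGG and the CCAAT box CCAAT on either strand.
Col4a5 (chrX:141475169-141475468, + strand): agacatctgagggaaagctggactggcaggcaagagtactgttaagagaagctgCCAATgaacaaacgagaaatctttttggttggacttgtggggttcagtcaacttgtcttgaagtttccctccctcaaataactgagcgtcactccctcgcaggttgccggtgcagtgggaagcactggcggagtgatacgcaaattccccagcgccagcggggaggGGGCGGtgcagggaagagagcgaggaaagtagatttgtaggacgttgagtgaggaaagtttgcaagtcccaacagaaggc
Col4a6 (chrX:141474027-141474326, - strand): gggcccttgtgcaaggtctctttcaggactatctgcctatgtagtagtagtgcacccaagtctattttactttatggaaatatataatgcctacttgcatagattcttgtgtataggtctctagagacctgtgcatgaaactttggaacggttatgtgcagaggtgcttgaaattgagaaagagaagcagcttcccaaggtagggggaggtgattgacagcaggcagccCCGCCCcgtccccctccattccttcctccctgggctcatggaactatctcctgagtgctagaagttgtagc
Col4a1 (chr8:11312777-11313076, - strand): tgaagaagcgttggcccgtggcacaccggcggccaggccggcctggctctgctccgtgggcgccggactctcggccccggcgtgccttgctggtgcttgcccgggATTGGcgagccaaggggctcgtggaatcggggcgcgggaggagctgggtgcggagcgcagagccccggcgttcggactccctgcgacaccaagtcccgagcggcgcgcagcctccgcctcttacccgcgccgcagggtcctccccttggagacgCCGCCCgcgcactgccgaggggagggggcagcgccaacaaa
Col4a2 (chr8:11312555-11312854, + strand): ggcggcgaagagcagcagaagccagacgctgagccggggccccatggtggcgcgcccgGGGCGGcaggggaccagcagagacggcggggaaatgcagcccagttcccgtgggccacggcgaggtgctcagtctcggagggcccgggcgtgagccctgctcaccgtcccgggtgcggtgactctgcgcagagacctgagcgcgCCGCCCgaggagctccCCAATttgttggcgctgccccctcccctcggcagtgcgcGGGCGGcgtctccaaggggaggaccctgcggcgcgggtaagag
The windows of Col4a1 and Col4a2 shared 78 bases, whereas those of Col4a6 and Col4a5 were 842 bases apart. G and C made up 52.7% and 48.3% of the Col4a5 and Col4a6 windows and 74.0% and 73.7% of the Col4a1 and Col4a2 windows, which held 37 and 33 CpG sites against 11 and 3. The pairs were picked by their outcome, so the contrast of their windows is not a result about collagens that rose. Whether base composition goes with the change in KO mice was not tested. Windows were found for 35 of the 44 collagens (38 windows). The GC box stood in 23 of these (60.5%), against 35.7% of 32851 windows of all genes, the CCAAT box in 34.2% against 37.4%, and the TATA box TATAAA in 13.2% against 13.6%. The median GC content was 59.8% in collagen windows and 52.7% in all windows.

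The question of deletion was addressed by KO against Myc mice of each sex. A collagen was called when its adjusted p was under 0.05 in edgeR over all genes. KO mice received the Cre virus and Myc mice did not, so Cre, the added virus and loss of H2A.Z cannot be told apart. The same holds for WT, KA and KQ against Myc mice. Log2 fold changes are fitted values and are followed by ± their standard error. In females 22 of 44 collagens were higher and 3 lower in KO than in Myc mice, and in males 13 were higher and 4 lower. Of all 28449 genes, 18.1% were higher and 16.5% lower in females, and 17.2% were higher and 14.4% lower in males. The median log2 fold change of the 44 collagens was 0.88 in females and 0.66 in males, beside 0.0030 and 0.03 over all genes. The 13 collagens higher in males were all among the 22 higher in females, and Col25a1, Col19a1 and Col11a1 were lower in both sexes. With leaving out 1 mouse at a time, 20 to 25 collagens were higher in females and 6 to 16 in males, and the count in males was 6 without KO mouse 4 and 8 without Myc mouse 22. Collagen counts made up 0.0413% to 0.0589% of a library in female KO and 0.0276% to 0.0331% in female Myc mice, and 0.0333% to 0.0489% in male KO and 0.0261% to 0.0370% in male Myc mice. In bulk tissue more RNA per cell and more cells of a type cannot be told apart.

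By class, 8 of 11 fibrillar, 4 of 6 type IV and 10 of 27 other collagens were higher in female KO mice, at median log2 fold changes of 1.11, 1.85 and 0.77. In males 5 of 11, 2 of 6 and 6 of 27 were higher, at medians of 0.89, 0.51 and 0.56. Each of the 3 classes thus held collagens that rose in both sexes. Of all genes 18.1% were higher in females and 17.2% in males, and the male share of the other collagens was near that of all genes. The type IV genes higher in males were Col4a5 and Col4a6 alone. Among the called collagens the largest log2 fold changes were those of Col8a2 (4.41), Col8a1 (3.67) and Col4a6 (3.20) in females and of Col6a4 (-2.82) and Col4a6 (2.51) in males. Summed over a class, fibrillar collagens stood at 111 to 172 CPM in female KO and 68.3 to 78.5 CPM in female Myc mice, and at 82.2 to 137 CPM in male KO and 68.6 to 99.2 CPM in male Myc mice. Type IV sums were 106 to 117 CPM in female KO and 91.8 to 102 CPM in female Myc mice, and 98.7 to 116 CPM in male KO and 86.7 to 113 CPM in male Myc mice. The sums separated KO from Myc females in both classes and overlapped in males.

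**Figure D1:**
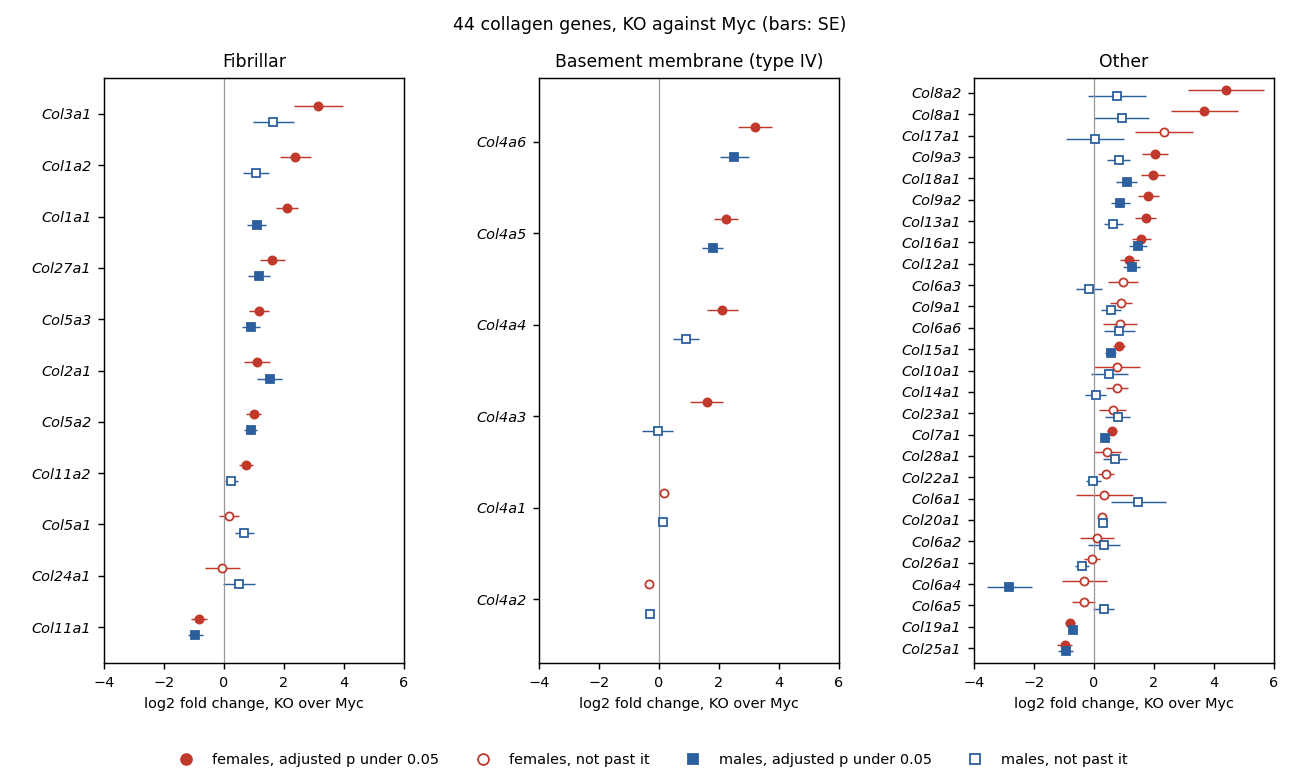
Log2 fold change of KO over Myc (x axis, bars are SE) for each of the 44 collagens (y axis) by class, in females (circles) and males (squares). Filled marks passed an adjusted p of 0.05. Col4a5 and Col4a6 lie at 1.79 to 3.20 in both sexes, whereas Col4a1 and Col4a2 lie between -0.32 and 0.17.

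Among type IV genes, the X-linked pair Col4a5 and Col4a6 rose most. These genes encode the alpha 5 and alpha 6 chains, which assemble together in basement membranes of smooth muscle and some epithelia. In GRCm39, Col4a6 lies on chromosome X at 139948399 to 140257072 on the minus strand and Col4a5 at 140258354 to 140472231 on the plus strand, 1281 bases apart. Col4a6 stood at 13.4, 11.9, 5.03 and 8.66 CPM in female KO mice and 1.11, 1.11 and 0.937 CPM in female Myc mice. Male KO mice had 7.98, 9.46, 5.98 and 5.66 CPM and male Myc mice 0.779, 0.984, 0.968 and 2.33 CPM. Every KO mouse was above every Myc mouse of its sex, and the nearest Myc mouse was male mouse 41. The log2 fold change was 3.20 ± 0.56 (adjusted p = 3.74e-05) in females and 2.51 ± 0.48 (adjusted p = 0.000111) in males. Col4a5 stood at 18.2, 16.7, 9.87 and 9.21 CPM in female KO and 3.16, 2.93 and 2.51 CPM in female Myc mice. The male values were 11.4, 14.9, 7.69 and 8.99 CPM in KO mice and 3.47, 2.16, 3.17 and 3.60 CPM in Myc mice, again without overlap. Its log2 fold change was 2.23 ± 0.40 (adjusted p = 4.87e-05) in females and 1.79 ± 0.35 (adjusted p = 0.000153) in males. Both genes passed in both sexes under each of the alternatives run.

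Col4a1 and Col4a2 encode the alpha 1 and alpha 2 chains, the usual type IV collagen of brain vessels, and were the most abundant type IV genes, with Col4a2 at the highest mean level per length of all 44 (7.44 CPM per kilobase of exon). They lie on chromosome 8 at 11248423 to 11362826 (minus strand) and 11362471 to 11499287 (plus strand). Col4a2 stood at 40.2, 40.6, 51.5 and 47.6 CPM in female KO and 58.7, 54.7 and 54.8 CPM in female Myc mice. Among males, KO mice had 39.8, 42.1, 49.7 and 53.8 CPM and Myc mice 59.3, 48.7, 56.7 and 63.1 CPM. Female KO mice were all below female Myc mice, yet the difference did not pass in either sex, at a log2 fold change of -0.32 ± 0.13 (adjusted p = 0.055) and -0.30 ± 0.12 (adjusted p = 0.057). Col4a1 had means of 38.5 ± 1.11 (SD, n = 4) CPM in female KO and 34.1 ± 2.51 (SD, n = 3) CPM in female Myc mice, a log2 fold change of 0.17 ± 0.13 (adjusted p = 0.33). In males the means were 40.4 ± 3.19 (SD, n = 4) CPM in KO and 36.9 ± 3.72 (SD, n = 4) CPM in Myc mice, a log2 fold change of 0.13 ± 0.12 (adjusted p = 0.468). The exons of Col4a1 and Col4a2 share 311 bases on opposite strands, and the strand setting of the counting is not given in the sources used here, so that reads there cannot be assigned with certainty.

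Col4a3 and Col4a4, which encode chains of the kidney filter and lie head to head on chromosome 1, passed the test in females and not in males. Col4a4 stood at 4.42, 6.76, 4.04 and 1.77 CPM in female KO and 1.09, 1.15 and 0.681 CPM in female Myc mice, a log2 fold change of 2.116 ± 0.51 (adjusted p = 0.00124). Col4a3 stood at 0.862, 2.61, 2.28 and 0.572 CPM in female KO and 0.507, 0.356 and 0.724 CPM in female Myc mice, a log2 fold change of 1.58 ± 0.55 (adjusted p = 0.0238). The higher Col4a3 values belonged to mice 14 and 33, which also had high Ttr, and the other KO females lay within or near the Myc range. Without the 4 high-Ttr mice the log2 fold change of Col4a3 was 0.45 ± 0.45 (adjusted p = 0.495), and its adjusted p was 0.0634 to 0.106 without any 1 of female KO mice 14 and 33 and Myc mice 11 and 31. Col4a4 kept its call without the high-Ttr mice. With a score of choroid plexus markers as a covariate in edgeR, Col4a3 was at 0.07 ± 0.38 (adjusted p = 0.923) and Col4a4 at 1.09 ± 0.38 (adjusted p = 0.033) in females. In males Col4a4 and Col4a3 had log2 fold changes of 0.89 ± 0.44 (adjusted p = 0.125) and -0.04 ± 0.51 (adjusted p = 0.968).

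**Figure D2:**
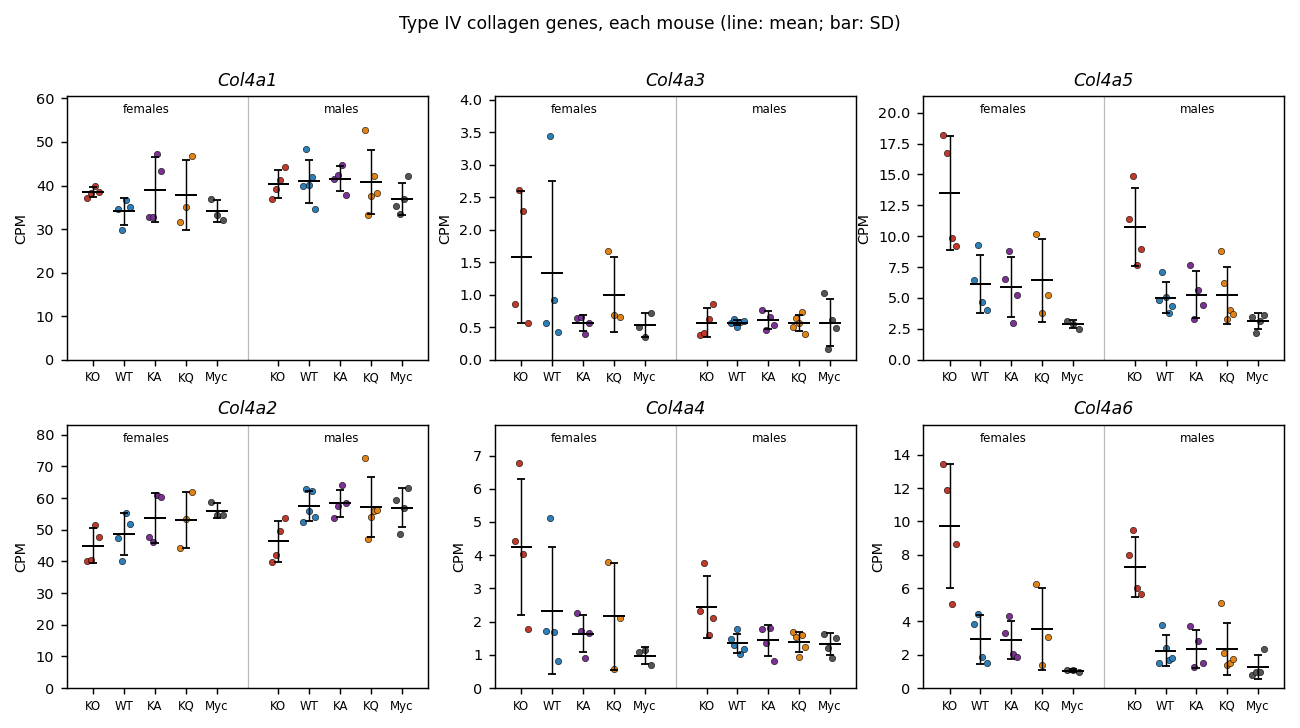
CPM (y axis) of the 6 type IV collagen genes in each mouse (points) by group, females left and males right in each panel. Lines are means and bars SD, cut at 0. Col4a5 and Col4a6 are at 9.21 and 5.03 CPM or more in every female KO mouse, above all female Myc mice, and Col4a1 and Col4a2 stay between 29.8 and 72.6 CPM throughout.

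Among fibrillar genes, Col1a1 encodes the alpha 1 chain of type I collagen, the main fibril of skin, bone and meninges. Col1a1 stood at 11.3, 14.7, 11.1 and 11.1 CPM in female KO and 2.78, 2.93 and 2.72 CPM in female Myc mice. In KO males the gene had 9.27, 8.29, 7.27 and 11.6 CPM, and in Myc males 3.24, 3.14, 4.02 and 6.67 CPM. The groups did not overlap in either sex, and the log2 fold change was 2.10 ± 0.38 (adjusted p = 5.26e-05) in females and 1.09 ± 0.33 (adjusted p = 0.0103) in males. Its partner Col1a2 was called in females, at a log2 fold change of 2.38 ± 0.51 (adjusted p = 0.000527), and was at 1.06 ± 0.44 (adjusted p = 0.0646) in males, where Myc mouse 41 had 14.3 CPM. Col3a1, the type III chain of vessel walls and loose stroma, likewise passed in females at 3.15 ± 0.83 (adjusted p = 0.00341) and had 1.65 ± 0.68 (adjusted p = 0.0658) in males.

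Col27a1 encodes a fibrillar chain of growing cartilage. Col27a1 stood at 27.4, 21.5, 10.7 and 11.7 CPM in female KO and 6.52, 5.10 and 5.92 CPM in female Myc mice. Levels in males were 16.1, 15.5, 6.57 and 9.07 CPM in KO mice and 5.53, 4.79, 5.57 and 5.27 CPM in Myc mice. KO mice were all above Myc mice, and mice 13 and 14 of the female and 3 and 4 of the male KO group were higher than the rest. These were the KO mice in the lowest range of sample numbers. KO over Myc, the log2 fold change was 1.61 ± 0.41 (adjusted p = 0.00266) in females and 1.16 ± 0.37 (adjusted p = 0.0152) in males, and in males the adjusted p was 0.061 without either of KO mice 3 and 4.

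Type V collagen sits inside type I fibrils and limits their width. Col5a2 stood at 12.7, 9.93, 9.07 and 9.18 CPM in female KO and 5.03, 5.14 and 5.24 CPM in female Myc mice. Male KO mice had 8.33, 10.1, 6.83 and 8.08 CPM and male Myc mice 5.45, 2.95, 4.28 and 5.27 CPM. There was no overlap, at a log2 fold change of 0.99 ± 0.25 (adjusted p = 0.00176) in females and 0.89 ± 0.23 (adjusted p = 0.00217) in males. Col5a3 stood at 8.05, 4.84, 3.27 and 5.04 CPM in female KO and 2.10, 2.45 and 2.51 CPM in female Myc mice. The male values were 4.35, 7.80, 3.23 and 3.24 CPM in KO mice and 2.74, 2.09, 2.81 and 2.41 CPM in Myc mice. Its groups did not overlap either, at 1.17 ± 0.33 (adjusted p = 0.00536) in females and 0.89 ± 0.30 (adjusted p = 0.0195) in males, with an adjusted p of 0.0605 to 0.207 in males without either KO mouse 4 or Myc mouse 22. Col5a1, the remaining type V chain, did not pass, at 0.17 ± 0.35 (adjusted p = 0.75) and 0.68 ± 0.32 (adjusted p = 0.108).

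Col2a1 encodes type II collagen of cartilage. Col2a1 stood at 4.39, 3.48, 2.56 and 1.25 CPM in female KO and 1.52, 1.42 and 1.11 CPM in female Myc mice. Among males, KO mice had 1.81, 5.67, 0.912 and 1.34 CPM and Myc mice 1.01, 0.381, 0.968 and 1.01 CPM. The groups overlapped in both sexes through the lowest KO mouse, and 1 male KO mouse, mouse 4, stood well above the rest. The log2 fold change was 1.11 ± 0.44 (adjusted p = 0.0473) in females and 1.52 ± 0.41 (adjusted p = 0.00371) in males. The female call was lost without any 1 of 24 of the 40 mice (adjusted p = 0.05005 to 0.168), among them KO mice 13 and 14 and all Myc females, and without the 4 high-Ttr mice (0.133), where the log2 fold change was 1.06 ± 0.52. The male call was lost without KO mouse 4 (0.178).

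Col11a2, a type XI chain, was the most abundant fibrillar gene per length, at a mean of 6.13 CPM per kilobase. Col11a2 stood at 68.6, 62.5, 53.5 and 29.1 CPM in female KO and 34.5, 27.0 and 34.6 CPM in female Myc mice. In KO males the gene had 49.3, 56.2, 25.8 and 30.9 CPM, and in Myc males 31.4, 34.8, 34.2 and 37.2 CPM. The groups overlapped in both sexes, with KO mouse 34 within the female Myc range. KO over Myc, the log2 fold change was 0.74 ± 0.23 (adjusted p = 0.0135) in females and 0.24 ± 0.21 (adjusted p = 0.437) in males, and the female call was lost without either KO mouse 13 or Myc mouse 31 (adjusted p = 0.0641 to 0.0766) and without the high-Ttr mice (0.106, at a log2 fold change of 0.61). Col24a1 did not pass in either sex.

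Among the other collagens, the multiplexins Col18a1 and Col15a1, basement membrane proteoglycans whose ends can be cleaved into endostatin-type fragments, rose in both sexes. Col18a1 stood at 8.70, 11.4, 10.1 and 10.5 CPM in female KO and 1.93, 2.85 and 3.07 CPM in female Myc mice. Levels in males were 5.14, 8.07, 5.49 and 8.12 CPM in KO mice and 2.59, 1.56, 3.02 and 5.38 CPM in Myc mice. Females did not overlap, and males overlapped through Myc mouse 41. The log2 fold change was 1.97 ± 0.40 (adjusted p = 0.000229) in females and 1.09 ± 0.35 (adjusted p = 0.0162) in males, and the male call was lost without any 1 of KO mouse 4 and Myc mice 1 and 22 (adjusted p = 0.0511 to 0.0734). Exons of Col18a1 share 12.7% of their bases with Slc19a1 on the opposite strand, which averaged 8.999 ± 1.67 (SD, n = 4) CPM in female KO and 7.73 ± 0.499 (SD, n = 3) CPM in female Myc mice. Col15a1 stood at 7.08, 6.87, 4.72 and 4.88 CPM in female KO and 4.03, 3.01 and 2.85 CPM in female Myc mice. Male KO mice had 4.30, 6.57, 6.20 and 6.96 CPM and male Myc mice 4.07, 3.43, 4.84 and 3.93 CPM. Its groups separated in females and overlapped in males, at 0.83 ± 0.20 (adjusted p = 0.00141) in females and 0.56 ± 0.18 (adjusted p = 0.0165) in males, and the male call was lost without any 1 of KO mice 4 and 42 and Myc mouse 22 (adjusted p = 0.0526 to 0.0629).

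FACIT collagens bind to the surface of fibrils. Col16a1 stood at 36.3, 26.2, 20.9 and 21.5 CPM in female KO and 9.91, 7.39 and 8.90 CPM in female Myc mice. The male values were 17.5, 37.8, 13.2 and 13.0 CPM in KO mice and 6.53, 5.998, 8.59 and 8.27 CPM in Myc mice. Its lowest KO mouse was above the highest Myc mouse of its sex, at 1.58 ± 0.32 (adjusted p = 0.000269) in females and 1.47 ± 0.29 (adjusted p = 0.000184) in males. Col12a1 stood at 5.71, 5.51, 4.94 and 6.35 CPM in female KO and 2.54, 1.27 and 3.66 CPM in female Myc mice. Among males, KO mice had 5.16, 9.41, 5.14 and 7.52 CPM and Myc mice 2.87, 1.68, 3.20 and 3.65 CPM. It did not overlap either, at 1.18 ± 0.31 (adjusted p = 0.00296) in females and 1.25 ± 0.28 (adjusted p = 0.00056) in males.

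Type IX collagen coats type II fibrils and is also made by epithelia. Col9a2 stood at 7.89, 10.8, 7.99 and 5.09 CPM in female KO and 1.67, 2.97 and 2.21 CPM in female Myc mice. In KO males the gene had 6.62, 8.15, 3.04 and 4.41 CPM, and in Myc males 2.31, 2.16, 2.61 and 4.94 CPM. Females separated and males overlapped through Myc mouse 41. KO over Myc, the log2 fold change was 1.81 ± 0.36 (adjusted p = 0.000143) in females and 0.88 ± 0.31 (adjusted p = 0.0281) in males, and the male call was lost without any 1 of KO mice 3 and 4 and Myc mice 1, 22 and 23 (adjusted p = 0.0734 to 0.158). Col9a3 was the most abundant FACIT gene per length, at 4.38 CPM per kilobase. Col9a3 stood at 24.3, 56.2, 54.3 and 17.6 CPM in female KO and 10.4, 8.70 and 8.98 CPM in female Myc mice. Levels in males were 20.5, 28.9, 15.9 and 17.6 CPM in KO mice and 13.4, 10.1, 11.4 and 11.7 CPM in Myc mice. No KO mouse overlapped with Myc mice, and KO females 14 and 33 were the highest. It passed in females at 2.02 ± 0.43 (adjusted p = 0.000497), and without the high-Ttr mice at 1.17 ± 0.24 (adjusted p = 0.000431), and was at 0.83 ± 0.38 (adjusted p = 0.0976) in males. Exons of Col9a3 share 11.8% of their bases with Tcfl5 on the opposite strand, which averaged under 1 CPM in every group.

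Col7a1 encodes the anchoring fibril chain of skin. Col7a1 stood at 7.59, 6.69, 5.99 and 5.31 CPM in female KO and 4.78, 3.84 and 4.002 CPM in female Myc mice. Male KO mice had 6.38, 5.78, 4.84 and 5.96 CPM and male Myc mice 4.62, 4.44, 4.16 and 4.36 CPM. All KO mice were above all Myc mice of their sex by a small margin, at 0.60 ± 0.15 (adjusted p = 0.00184) in females and 0.38 ± 0.14 (adjusted p = 0.0298) in males. The male call was lost without any 1 of KO mice 3, 4 and 42 and Myc mice 22, 23 and 41 (adjusted p = 0.0513 to 0.0968). Col13a1, a transmembrane collagen of cell junctions with muscle and matrix, passed in females at 1.73 ± 0.35 (adjusted p = 0.000184) and had 0.65 ± 0.31 (adjusted p = 0.11) in males.

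The short-chain collagens Col8a1 and Col8a2, which build the lattice under corneal and vascular endothelium, had the largest fitted changes of all 44 in females and were high in the mice with high Ttr. Col8a2, the most abundant of this class per length, stood at 1.78, 14.3, 10.1 and 0.872 CPM in female KO and 0.145, 0.435 and 0.426 CPM in female Myc mice. The male values were 0.406, 1.99, 1.19 and 3.41 CPM in KO mice and 2.04, 0.413, 0.323 and 1.22 CPM in Myc mice. Female KO mice 14 and 33 stood far above mice 13 and 34, and males overlapped. Col8a1 stood at 2.88, 21.0, 14.6 and 1.85 CPM in female KO and 0.870, 0.672 and 0.809 CPM in female Myc mice. Log2 fold changes in females were 4.41 ± 1.26 (adjusted p = 0.00685) for Col8a2 and 3.67 ± 1.11 (adjusted p = 0.0105) for Col8a1. Outside KO the high values were in WT mouse 20 (20.3 CPM of Col8a2 and 23.0 CPM of Col8a1) and KQ mouse 17 (10.8 and 13.3 CPM). Without the 4 high-Ttr mice the log2 fold change was 2.05 ± 1.00 (adjusted p = 0.132) for Col8a2 and 1.59 ± 0.81 (adjusted p = 0.15) for Col8a1. Ttr itself stood at 3655 and 2654 CPM in female KO mice 14 and 33, against 84.3 and 35.6 CPM in KO mice 13 and 34 and 7.03 to 26.1 CPM in female Myc mice. Of 14 choroid plexus markers 13 were higher and 0 lower in female KO mice (all genes 18.1% and 16.5%). In males 0 of these markers passed in either direction (all genes 17.2% higher and 14.4% lower). Their summed level was 70.5 to 4168 CPM in female KO and 30.9 to 51.6 CPM in female Myc mice, and 50.4 to 697 CPM in male KO and 35.6 to 615 CPM in male Myc mice. With a score of these markers as a covariate in edgeR, Col8a1 was at 0.39 ± 0.34 (adjusted p = 0.436) in females. Col8a2 was at 0.94 ± 0.42 (adjusted p = 0.101). With this score 17 of the 22 collagens higher in females kept their call, and all 13 in males. The part of choroid plexus tissue in these results was not tested. Without the 4 mice 17 of the 22 collagens higher in females remained, and all 13 in males.

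**Figure D3:**
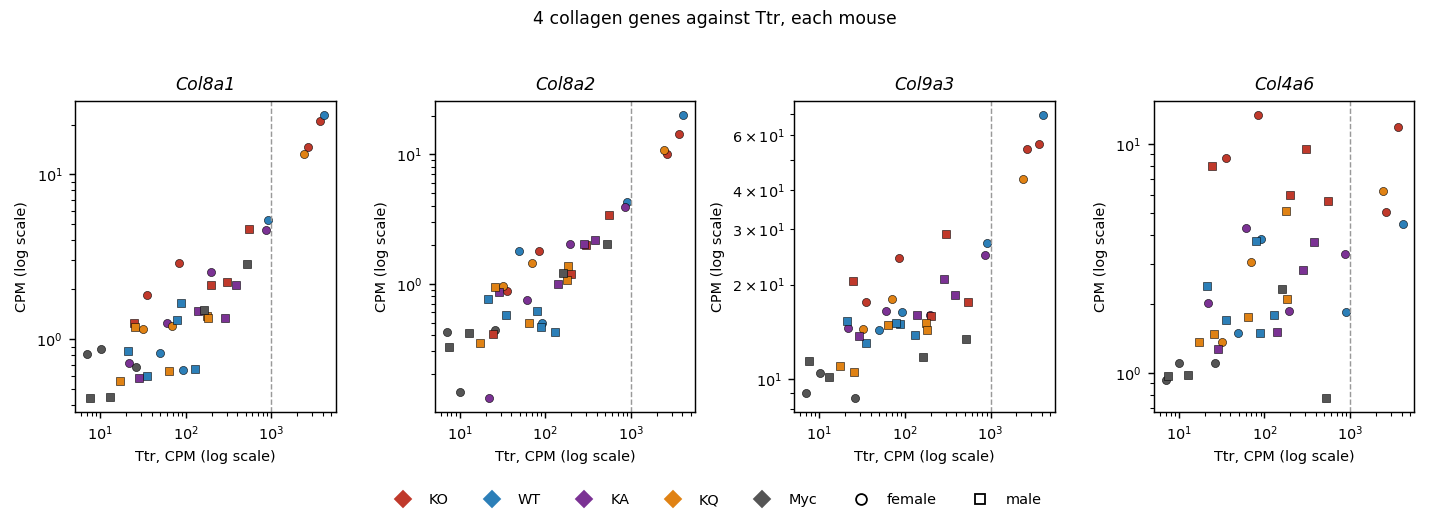
CPM of Col8a1, Col8a2, Col9a3 and Col4a6 (y axes, log scale) against CPM of Ttr (x axis, log scale) in each of 40 mice, coloured by group, circles for females and squares for males. The 4 mice right of the dashed line at 1000 CPM have 13.3 to 23.0 CPM of Col8a1, above all others, whereas Col4a6 is highest, at 13.4 CPM, in a KO mouse left of the line.

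Type VI collagen forms beaded filaments around many cells, and none of its 6 genes was called higher in either sex. Col6a1, the most abundant of this class at 4.12 CPM per kilobase, stood at 13.5, 30.7, 25.1 and 31.5 CPM in female KO and 8.89, 41.1 and 10.0 CPM in female Myc mice. Among males, KO mice had 36.7, 11.6, 7.08 and 19.5 CPM and Myc mice 7.84, 4.79, 6.42 and 7.61 CPM. Its values ran from 4.25 to 89.2 CPM over all mice with high and low mice in each Cre group, and the log2 fold change was 0.34 ± 0.95 (adjusted p = 0.818) in females and 1.48 ± 0.91 (adjusted p = 0.232) in males. Female Myc mouse 31 had 41.1 CPM of Col6a1 and 8.98 CPM of Col6a2, above both other Myc females. Col6a4 was the exception, since it passed in males and was lower there, at 0.406, 1.09, 0.281 and 0.130 CPM in KO and 2.26, 3.65, 4.02 and 4.03 CPM in Myc mice. Male groups of Col6a4 did not overlap, at -2.82 ± 0.74 (adjusted p = 0.00359), whereas females had 0.727, 0.535, 2.47 and 1.55 CPM in KO and 2.03, 1.30 and 1.53 CPM in Myc mice, a log2 fold change of -0.32 ± 0.75 (adjusted p = 0.781). Neither Col6a2, Col6a3, Col6a5 nor Col6a6 passed in either sex.

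The collagens that were lower in both sexes were Col25a1, Col19a1 and Col11a1. Col25a1 encodes a membrane collagen of neurons whose shed part is found in amyloid plaques. Col25a1 stood at 18.9, 18.9, 24.9 and 19.9 CPM in female KO and 41.5, 45.5 and 35.1 CPM in female Myc mice. In KO males the gene had 17.4, 18.9, 23.8 and 40.8 CPM, and in Myc males 55.1, 33.0, 57.5 and 48.0 CPM. Females did not overlap, and in males KO mouse 42 was within the Myc range. The log2 fold change was -0.98 ± 0.25 (adjusted p = 0.00286) in females and -0.95 ± 0.24 (adjusted p = 0.00228) in males, where the call was lost when the compared groups were fitted alone (adjusted p = 0.0717). Col19a1 encodes a FACIT-like chain that hippocampal interneurons secrete at synapses. Col19a1 stood at 14.6, 15.1, 21.2 and 13.9 CPM in female KO and 28.7, 26.3 and 29.5 CPM in female Myc mice. Levels in males were 21.9, 14.9, 16.8 and 22.2 CPM in KO mice and 34.9, 22.5, 34.9 and 31.1 CPM in Myc mice. The groups did not overlap in either sex, at -0.80 ± 0.16 (adjusted p = 0.000137) in females and -0.71 ± 0.15 (adjusted p = 0.000262) in males.

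Col11a1, the partner of Col11a2 in type XI fibrils, stood at 6.22, 5.20, 5.12 and 6.78 CPM in female KO and 9.86, 11.1 and 10.4 CPM in female Myc mice. Male KO mice had 4.11, 8.15, 9.23 and 7.61 CPM and male Myc mice 16.8, 11.7, 13.0 and 14.9 CPM. All KO mice were below all Myc mice, at -0.84 ± 0.27 (adjusted p = 0.0142) in females and -0.95 ± 0.25 (adjusted p = 0.00319) in males, in edgeR over all mice. The female call was lost without the high-Ttr mice, at -0.67 ± 0.27 (adjusted p = 0.0592), with a score of the choroid plexus markers as a covariate, at -0.70 ± 0.30 (0.0891), and with a score of the fibroblast markers, at -0.56 ± 0.33 (0.263), whereas the male call was kept under each of these. Beside these 3 genes, 7 of 10 hippocampal neuron markers were lower in female KO mice (all genes 16.5%). In male KO mice 8 of 10 were lower (all genes 14.4%). In either sex 0 of these markers were higher, and the medians were -0.74 in females and -0.59 in males. Their summed level was 4086 to 7244 CPM in female KO and 10350.4 to 10699 CPM in female Myc mice, and 4896 to 8080 CPM in male KO and 10409 to 11360.0 CPM in male Myc mice. The part of neuronal RNA in the lower level of these collagens was not tested.

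**Figure D4:**
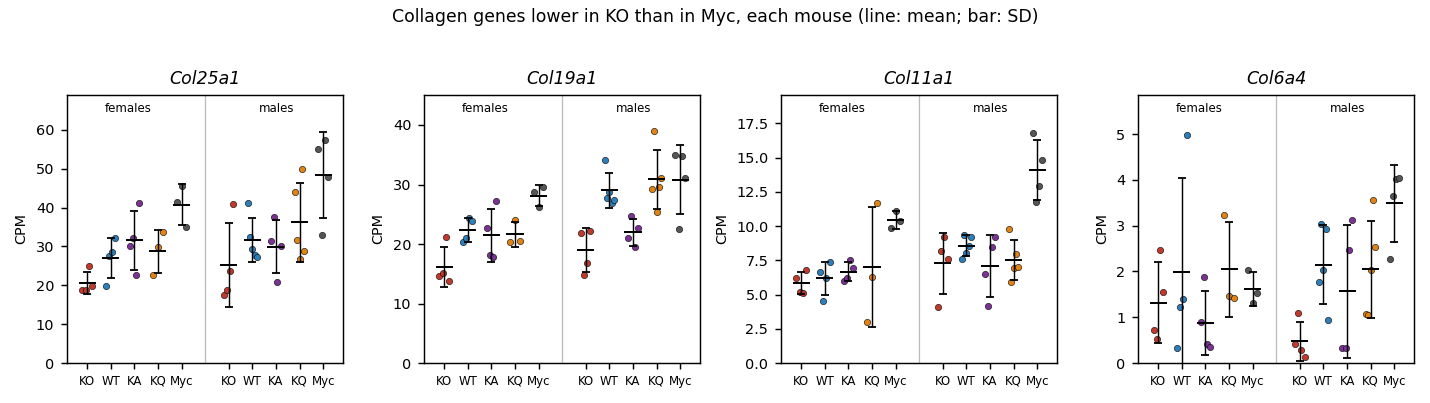
CPM (y axis) of Col25a1, Col19a1, Col11a1 and Col6a4 in each mouse (points) by group, females left and males right in each panel, with means (lines) and SD (bars). Col19a1 and Col11a1 are lower in every KO mouse than in any Myc mouse of the same sex, with Col11a1 at most 9.23 CPM in KO.

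Replacement was read in WT, KA and KQ mice against KO mice, and each also against Myc mice. The comparisons share KO or Myc mice with the ones above, so that counts are given side by side only. In females 10 collagens were lower and 1 higher in WT than in KO mice (all genes 9.17% and 5.36%), 12 lower and 0 higher in KA (9.62% and 5.63%) and 1 lower and 1 higher in KQ (7.63% and 5.36%). Those lower in both WT and KA females were Col5a2, Col9a2, Col1a2, Col12a1, Col13a1, Col18a1, Col1a1, Col4a6 and Col4a5. With the fibroblast score as a covariate the count lower than in KO was 0 in each of WT, KA and KQ females. Calls over all genes with this covariate are not given here, so the drop is not a result about collagens alone. The WT count was 3 to 5 without any 1 of KO mice 13 and 14 and WT mice 19, 39 and 40, and 6 without the 4 high-Ttr mice. The KA count was 7 without KO mouse 14, 5 without KA mouse 35 and 5 without the high-Ttr mice. Col4a6 was the collagen lower in KQ females, with a count of 0 without any 1 of 21 of the 40 mice, KO mice 13 and 14 and KQ mice 37 and 38 among them, and of 2 to 4 without any 1 of 9 mice, with 4 without KQ mouse 17.

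In males 6 collagens were lower and 2 higher in WT than in KO mice (all genes 12% and 7.44%), 3 lower and 0 higher in KA (9.94% and 5.86%) and 7 lower and 2 higher in KQ (12.7% and 8.72%). Col12a1, Col4a6 and Col4a5 were the collagens lower in all of WT, KA and KQ males. Col19a1 and Col6a4 were the ones higher in WT and in KQ males. The WT count was 2 without KO mouse 4 and 3 without either of WT mice 29 and 30. The KA count was 1 without either of KA mice 25 and 43, and the KQ count was 4 without either KO mouse 4 or KQ mouse 28 and 11 without KQ mouse 8. With the fibroblast score the male counts were 1 in WT, 2 in KA and 0 in KQ mice, again without the share of all genes under it. Without that score, male shares of collagens lower than in KO were near those of all genes, at 6, 3 and 7 of 44.

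Col4a6 and Col4a5 show the levels behind these calls. Col4a6 stood at 3.85, 4.47, 1.85 and 1.49 CPM in WT, 3.30, 4.30, 2.03 and 1.86 CPM in KA and 6.24, 1.37 and 3.04 CPM in KQ females, against the 5.03 to 13.4 CPM of KO and 0.937 to 1.11 CPM of Myc females. In males it stood at 1.49, 3.78, 2.40, 1.70 and 1.80 CPM in WT, 3.74, 1.27, 2.81 and 1.51 CPM in KA and 5.11, 2.10, 1.36, 1.49 and 1.75 CPM in KQ mice, against 5.66 to 9.46 CPM in KO and 0.779 to 2.33 CPM in Myc mice. No WT or KA mouse reached a KO mouse of its sex, every female replacement mouse was above the Myc females, and male replacement mice overlapped with Myc mouse 41. KQ mouse 17 was within the female KO range. Against KO, the log2 fold change of Col4a6 was -1.74 ± 0.46 (adjusted p = 0.00813) in WT, -1.77 ± 0.46 (adjusted p = 0.00821) in KA and -1.46 ± 0.50 (adjusted p = 0.0488) in KQ females. In males it was -1.71 ± 0.43 (adjusted p = 0.00407) in WT, -1.64 ± 0.46 (adjusted p = 0.0118) in KA and -1.64 ± 0.43 (adjusted p = 0.00541) in KQ mice. Col4a5 stood at 6.47, 9.27, 4.65 and 4.02 CPM in WT, 6.52, 8.79, 2.95 and 5.22 CPM in KA and 10.2, 3.80 and 5.25 CPM in KQ females. In males it stood at 4.83, 7.09, 5.09, 3.81 and 4.35 CPM in WT, 7.69, 3.29, 5.67 and 4.39 CPM in KA and 8.81, 6.17, 3.31, 4.05 and 3.67 CPM in KQ mice. KQ mouse 17 among females and KQ mouse 8 among males were the highest replacement mice for both genes. Each was the only KQ mouse of its sex in the lowest range of sample numbers. WT and KA females of that range also had the higher Col4a5 values of their group, at 6.47 and 9.27 CPM and at 6.52 and 8.79 CPM. WT males of that range overlapped with the other WT males. In KQ mice the single mouse and its range cannot be told apart.

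Set against Myc mice, fewer collagens passed in the replacement groups than in KO mice. The same held for all genes, of which 18.1% were higher in female and 17.2% in male KO mice, so the drop is not a result about collagens alone. In females 6 were higher and 0 lower in WT (all genes 5.87% and 3.52%), 1 higher and 0 lower in KA (4.42% and 3.23%), and 4 higher and 0 lower in KQ (3.59% and 2.08%). In males 2 were higher and 0 lower in WT (3.66% and 1.68%), 2 higher and 2 lower in KA (5.15% and 2.74%), and 1 higher and 1 lower in KQ (3.48% and 1.65%). The counts higher in KA females and in each male group were near or below the share of all genes. Col7a1 was the gene called most widely. Its log2 fold change over Myc was 0.67 ± 0.15 (adjusted p = 0.00539) in WT, 0.62 ± 0.15 (adjusted p = 0.00902) in KA and 0.68 ± 0.16 (adjusted p = 0.00971) in KQ females. In males it was 0.59 ± 0.13 (adjusted p = 0.00404) in WT, 0.51 ± 0.14 (adjusted p = 0.014) in KA and 0.42 ± 0.13 (adjusted p = 0.051) in KQ mice. Col11a1 was lower in male KA mice at -0.99 ± 0.25 (adjusted p = 0.00924) and in male KQ mice at -0.91 ± 0.23 (adjusted p = 0.0166), and Col19a1 in male KA mice at -0.49 ± 0.15 (adjusted p = 0.0302).

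These small counts moved with the fit and with single mice. With the range of sample numbers as a covariate 9 collagens were higher than in Myc mice in WT, 4 in KA and 13 in KQ females, and 4 in WT, 6 in KA and 7 in KQ males. DESeq2 gave 12 in WT, 7 in KA and 16 in KQ females, and 6 in WT, 4 in KA and 6 in KQ males. The shares of all genes given above belong to the edgeR fit without a covariate. Whether calls over all genes rose likewise under these alternatives is not given here, so the counts are not a result about collagens alone. In females the WT count was 1 to 3 without any 1 of WT mouse 20 and Myc mice 11, 31 and 32 and 12 without WT mouse 40, and 2 without the high-Ttr mice. The KA count in females was 0 without KA mouse 16 or Myc mouse 31, 3 without KA mouse 35 or 36, and 2 without any 1 of Myc mouse 11, KO mice 13 and 34 and male KO mouse 4, KQ mouse 8 and WT mouse 10. The KQ count in females was 0 without any 1 of KQ mouse 17 and Myc mice 31 and 32, 12 without KQ mouse 37, and 7 without WT mouse 20 or male KO mouse 4. In males the WT count was 1 without any 1 of Myc mice 1, 22, 23 and 41 and WT mice 9, 10 and 29, and 4 without WT mouse 30. The KA count in males was 0 without KA mouse 5 and 1 without any 1 of KA mouse 26 and Myc mice 1, 22, 23 and 41. The KQ count in males was 0 without any 1 of KQ mouse 27 and Myc mice 1, 22 and 23, 3 without KO mouse 4, and 2 without any 1 of male KA mice 5 and 25, WT mice 10 and 29 and KO mouse 21 and female KO mice 13 and 34 and KA mice 16 and 36.

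**Figure D5:**
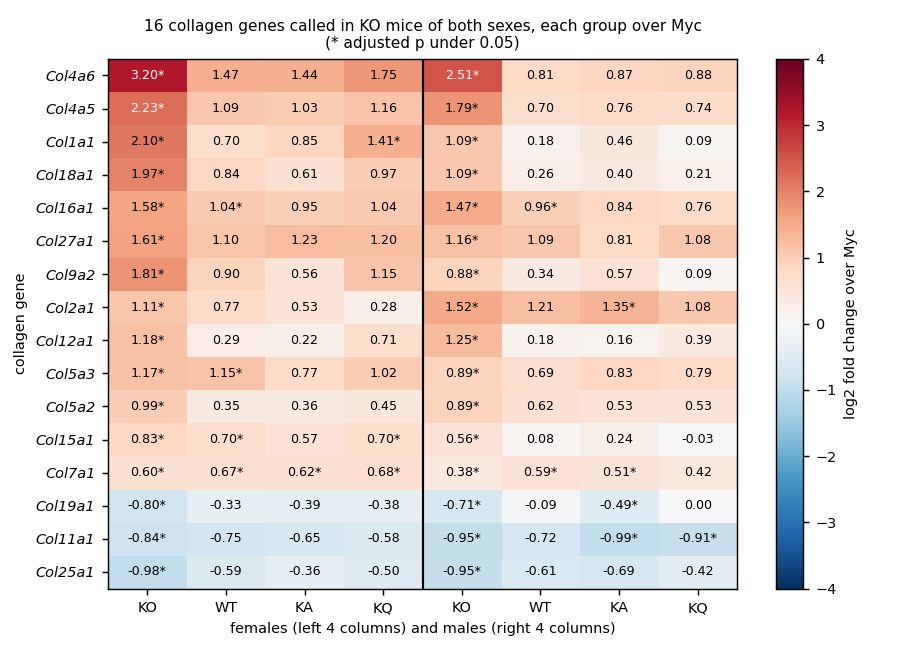
Log2 fold change over Myc (colour and printed values) of the 16 collagens called in KO mice of both sexes (rows), in KO, WT, KA and KQ mice (columns) of females (left) and males (right), with stars for an adjusted p under 0.05. Col4a6 is at 3.20 in female KO and 1.44 to 1.75 in the female replacement groups, whereas Col7a1 is at 0.38 to 0.68 in every column.

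KA and KQ mice were compared directly, because the pair of mutants differs in the residue that stands in for the lysines. No collagen differed between KA and KQ in either sex in edgeR, and 0% of all genes did. At an unadjusted p under 0.05 there were 2 of 44 collagens in females, beside 595 of 28449 genes, and 2 of 44 in males, beside 2993 genes. DESeq2 called 0 collagens in each sex. For Col4a6 the log2 difference of KA over KQ was -0.31 ± 0.49 (adjusted p = 1) in females and -0.01 ± 0.44 (adjusted p = 0.999) in males. For Col1a1 it was -0.56 ± 0.35 (adjusted p = 1) in females and 0.37 ± 0.31 (adjusted p = 0.7) in males.

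Sexes were compared by testing whether the response to deletion differed. No collagen passed in edgeR, 0% of all genes did, and DESeq2 called 0 collagens, with 6 of 44 collagens and 1569 genes at an unadjusted p under 0.05. The 9 collagens called higher in females only are therefore not shown to differ between the sexes. The fitted difference of female minus male response had the smallest p for Col6a4, at 2.50 ± 1.06 (adjusted p = 0.86), and Col13a1 followed at 1.08 ± 0.46 (adjusted p = 0.86). Of the 44 collagens 39 had the same sign in both sexes, and 31 had a positive difference of female minus male response. Between female and male Myc mice 0 collagens differed in edgeR, beside 0.0457% of all genes, and 0 in DESeq2. At an unadjusted p under 0.05 there were 0 collagens, beside 1525 of 28449 genes.

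Genes whose chains assemble into the same collagen type were compared for common variation between mice. Log2(CPM + 0.1) was taken with the mean of each group removed, over 40 mice, for 10 pairs, with permutation within groups (100000 permutations) and adjustment over the pairs. Col8a1 and Col8a2 had r = 0.92 and rho = 0.91, Col1a1 and Col1a2 r = 0.87 and rho = 0.84, Col4a1 and Col4a2 r = 0.86 and rho = 0.85, Col4a5 and Col4a6 r = 0.86 and rho = 0.83, and Col6a1 and Col6a2 r = 0.84 and rho = 0.81. For these 5 pairs both permutation p values were 1e-05, the smallest possible, with adjusted values of 2e-05. Within groups, mice that were high in 1 chain were thus high in its partner. The permutation took the mice of a group as exchangeable, although they come from different ranges of sample numbers. Pairs of genes that are not partners were not tested, so the values do not show a relation particular to partners. Without the 2 mice farthest from the median of the first gene, r was 0.90, 0.86, 0.82, 0.85 and 0.81 in the same order.

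Other partners moved together less. Col9a2 and Col9a3 had r = 0.55 (permutation p = 0.00011, adjusted 0.000183) and rho = 0.56 (p = 0.00073, adjusted 0.00122), with r = 0.61 without the 2 farthest mice. Col4a3 and Col4a4 had r = 0.57 (permutation p = 0.00995, adjusted 0.0142) and rho = 0.34 (p = 0.0771, adjusted 0.0964), with r = 0.50 without the 2 farthest mice and 0.17 over the 36 mice without high Ttr (adjusted p = 0.41), so that their relation rests on the high-Ttr mice. Col5a1 and Col5a2 had r = 0.32 (permutation p = 0.106, adjusted 0.132) and rho = 0.40 (p = 0.0305, adjusted 0.0436), and r = 0.28 without the 2 farthest mice. Col11a1 and Col11a2 had r = -0.24 (permutation p = 0.193, adjusted 0.215) and rho = -0.23 (p = 0.223, adjusted 0.248), and r = -0.22 without the 2 farthest mice. Col6a1 and Col6a3, whose chains share a trimer, had r = 0.03 (permutation p = 0.897, adjusted 0.897) and rho = -0.03 (p = 0.855, adjusted 0.855), and r = 0.05 without the 2 farthest mice. The first 5 pairs kept r of 0.82 to 0.87 over the 36 mice.

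Beside the collagens themselves, genes that make, bind and break down collagen were read from lists. Of all genes, 18.1% were higher and 16.5% lower in female KO mice, and 17.2% higher and 14.4% lower in male KO mice. Of 33 enzymes and chaperones of collagen synthesis 18 were higher and 2 lower in female KO mice and 16 higher and 2 lower in male KO mice, at median log2 fold changes of 0.64 and 0.45. Fkbp10, a chaperone of procollagen in the endoplasmic reticulum, rose on the log2 scale by 1.37 ± 0.17 (adjusted p = 1.26e-07) in females and 1.19 ± 0.15 (adjusted p = 1.05e-07) in males. Serpinh1, the collagen chaperone HSP47, rose by 1.54 ± 0.22 (adjusted p = 1.02e-06) and 0.97 ± 0.19 (adjusted p = 0.000146). Loxl3, a lysyl oxidase that cross-links fibrils, rose by 1.81 ± 0.25 (adjusted p = 5.33e-07) and 1.67 ± 0.22 (adjusted p = 1.7e-07), and Plod1, a lysyl hydroxylase of procollagen, by 1.05 ± 0.15 (adjusted p = 6.85e-07) and 0.82 ± 0.13 (adjusted p = 5.65e-06).

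The lists below stand beside the same shares of all genes, 18.1% higher in female and 17.2% in male KO mice. Of 10 collagen receptors 8 were higher in female and 7 in male KO mice and 0 lower, at medians of 1.34 and 0.98. Lair1, an inhibitory collagen receptor of leukocytes, rose on the same scale by 2.03 ± 0.23 (adjusted p = 4.4e-08) in females and 2.54 ± 0.21 (adjusted p = 5.31e-11) in males, and the receptor tyrosine kinase Ddr2 by 1.32 ± 0.22 (adjusted p = 1.56e-05) and 1.33 ± 0.20 (adjusted p = 2.3e-06). Of 15 genes of collagen degradation that were tested, 9 were higher and 1 lower in female and 6 higher and 0 lower in male KO mice, at medians of 1.18 and 1.11. Mmp2, a gelatinase, rose by 2.07 ± 0.26 (adjusted p = 1.67e-07) and 2.07 ± 0.24 (adjusted p = 8.07e-09), and Timp1, an inhibitor of such enzymes, by 3.82 ± 0.80 (adjusted p = 0.000388) and 5.00 ± 0.76 (adjusted p = 5.09e-06). Of 16 other basement membrane genes 9 were higher and 1 lower in female and 7 higher and 1 lower in male KO mice, at medians of 0.52 and 0.36. Lamb2, a laminin chain, rose by 1.22 ± 0.21 (adjusted p = 2.96e-05) and 0.80 ± 0.19 (adjusted p = 0.00131), whereas the laminin chain Lamb1 had -0.68 ± 0.13 (adjusted p = 0.000122) and -0.71 ± 0.12 (adjusted p = 2.42e-05) and was lower in both sexes.

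Markers of cells known to make collagen were read beside the 18.1% of all genes higher in female and 17.2% in male KO mice. Of 15 markers of meningeal and perivascular fibroblasts 11 were higher and 1 lower in female and 4 higher and 0 lower in male KO mice. Their summed level was 164 to 511 CPM in female KO and 118 to 260.3 CPM in female Myc mice, and 162 to 327 CPM in male KO and 125 to 233 CPM in male Myc mice, overlapping in both sexes. Of 11 mural cell markers 10 were higher in female and 1 in male KO mice and 0 lower, and of 12 endothelial markers 9 and 5 were higher and 0 lower. None of these markers was at 0 in every mouse. Mural sums were 248 to 484 CPM in female KO and 244 to 316 CPM in female Myc mice, and 237 to 365 CPM in male KO and 219 to 359.9 CPM in male Myc mice. Endothelial sums were 228 to 369.9 CPM in female KO and 208 to 243 CPM in female Myc mice, and 249.8 to 299 CPM in male KO and 199.5 to 243 CPM in male Myc mice.

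With a score of the fibroblast markers as a covariate, 7 of the 22 collagens higher in females kept their call, namely Col16a1, Col5a3, Col7a1, Col18a1, Col1a1, Col4a6 and Col4a5. In males 7 of 13 kept it, namely Col5a2, Col16a1, Col5a3, Col12a1, Col2a1, Col4a6 and Col4a5. The collagens that lost the call kept a positive fitted change. In females Col27a1 was at 1.35 ± 0.52 (adjusted p = 0.0652 in edgeR) and Col1a2 at 1.00 ± 0.37 (adjusted p = 0.0519). Both changes were smaller than without the covariate, and the standard error of Col27a1 was larger. How many of all genes kept their call is not given here, and the part of fibroblasts was not tested. Of the 3 collagens lower in both sexes, Col19a1 and Col25a1 passed in both with this covariate, and Col11a1 lost its call in females (adjusted p = 0.263) and kept it in males. Markers of 3 further cell types were higher in each sex, namely 8 of 8 of microglia, 7 of 7 of T cells and 6 of 8 of astrocytes. Of 8 markers of oligodendrocytes and their precursors 3 were higher in females and 1 in males, beside the same 18.1% and 17.2% of all genes. Microglial sums were 1130.2 to 1971 CPM in female KO and 303 to 463 CPM in female Myc mice, and 1196 to 2234 CPM in male KO and 295 to 398 CPM in male Myc mice. Their part in the collagen changes was not tested.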

How the data were processed

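RNA-seq libraries of hippocampus from 40 mice were analysed. The authors deposited whole-number read counts per gene, assigned with featureCounts; the submitters' processing notes also name FastQC 0.11.9, DESeq2 1.38.3 and GRCm39. Strand and multimapping settings are not given in the sources used here. The deposited normalized table and its values were not used.

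The 28449 of 40853 genes whose counts summed to 20 or more were fitted with edgeR 4.0.16 in R 4.3.3 (TMM scaling, robust quasi-likelihood test, all 10 groups of sex and treatment in 1 fit, Benjamini-Hochberg adjustment over all genes, threshold 0.05). Fitted log2 fold changes used the default prior count of edgeR. Marker scores were means of log2 CPM with a prior count of 2. Total counts were 24342921 to 45982772 per library, which sets the counting precision. The p-values weigh a difference of groups against the spread between mice, which was estimated over the 10 groups and moderated over genes. The same test was also run on simulated counts of 2 groups with a single dispersion. That setting is simpler than these data, so it does not check the fit of all 10 groups. Alternatives were DESeq2 1.42.0, its size factors, other filters, a fold threshold, fits of the compared groups alone, no robust estimation, the range of sample numbers or a marker score as a covariate, leaving out each mouse, and, chosen after seeing the data, leaving out 4 mice above 1000 CPM of Ttr.

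The collagens and lists were chosen with earlier results of these data known. Values per mouse are given for collagens called in KO against Myc in both sexes or most abundant per kilobase of their class, and for Col4a3, Col4a4, Col6a4 and Col8a1, chosen after their values were seen. From other lists, members were named among the 4 with the smallest p. Exons follow GENCODE (GRCm39) and promoters RefSeq (GRCm38.p6).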

Additional observations from a re-analysis of the deposited data

Results flagged for a closer look

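Within groups of 4 or 5 mice, the gap between the highest or lowest mouse and the nearest other mouse was divided by the range of the group, for 21 collagens in 168 groups. Chance passes Dixon's limit in about 1 in 20 groups, and 12 groups passed. No collagen moved in opposite directions in every mouse of the sexes.

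Male mice 8, 10 and 41 accounted for 6 of these. Mouse 8 was the only KQ male in the lowest range of sample numbers, and mice 9 and 10 were the WT males in it. Mouse 41 was the only Myc male in the highest range. KQ mouse 8 was highest for Col4a6 (5.11 CPM, gap over range 0.804) and Col27a1 (19.8 CPM, 0.836), WT mouse 10 for Col11a2 (62.1 CPM, 0.854) and Col27a1 (22.1 CPM, 0.787), and Myc mouse 41 for Col4a6 (2.33 CPM, 0.868) and Col9a2 (4.94 CPM, 0.838). WT mouse 9 was highest for Col19a1 (34.1 CPM, 0.739), and Myc mouse 22 was lowest for Col2a1 (0.381 CPM, 0.926). Among females, KO mouse 14 was highest for Col1a1 (14.7 CPM, 0.938), KO mouse 33 for Col19a1 (21.2 CPM, 0.834) and WT mouse 20 for Col18a1 (7.89 CPM, 0.879), and KA mouse 36 was lowest for Col27a1 (10.1 CPM, 0.940).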

How the results depend on the processing

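For single collagens in KO against Myc, 2002 values kept their direction and their side of the threshold, 98 lost the call and 0 reversed. Most of these values come from fits without 1 mouse, and most mice were outside the groups compared. Leaving out such a mouse changes little but the shared estimate of spread, so the kept values are no measure of stability. The counts against KO or Myc in replacement mice rest on few mice and on the fit, and the cause of each shift was not tested. Counts under an alternative stand here without the share of all genes called under it. No paired analysis was possible because each sample number belongs to 1 mouse, but the range of the sample number, with mice of several groups in each range, was fitted as a covariate.

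Counts of collagens higher in KO than Myc were 20 to 25 in females and 6 to 16 in males on leaving out 1 mouse, and those lower 3 to 4 and 4 to 5. With the fibroblast score as a covariate the higher counts were 7 in females and 8 in males. With an absolute log2 fold change over 1, 0 were lower in females, 8 higher in males and 1 lower in males.

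Collagens lower in WT than KO numbered 3 to 13 in females and 2 to 8 in males on leaving out 1 mouse. The female count was 0 with the fibroblast score and 6 without the high-Ttr mice, and the male count was 3 with the fold threshold, 13 in the compared groups alone, 3 with the choroid plexus score and 1 with the fibroblast score. Collagens lower in KA than KO numbered 5 to 13 in females and 1 to 3 in males on leaving out 1 mouse, and in females 0 with the fibroblast score and 5 without the high-Ttr mice. Collagens lower in KQ than KO numbered 0 to 4 in females and 4 to 11 in males on leaving out 1 mouse. The female count was 3 with DESeq2, 2 with its size factors, 2 with filterByExpr, 0 with no filter, 0 in the compared groups alone, 2 with no robust estimation, 3 with the number range, 3 with the choroid plexus score, 0 with the fibroblast score and 3 without the high-Ttr mice. The male count was 3 with the fold threshold and 0 with the fibroblast score.

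Collagens higher in WT than Myc numbered 1 to 12 in females and 1 to 4 in males on leaving out 1 mouse. The female count was 12 with DESeq2, 1 with the choroid plexus score, 3 with the fibroblast score and 2 without the high-Ttr mice. The male count was 0 with the fold threshold, 6 with DESeq2, 1 with no filter, 6 in the compared groups alone, 4 with the number range, 4 with the fibroblast score and 1 without the high-Ttr mice. Collagens higher in KA than Myc numbered 0 to 3 in each sex on leaving out 1 mouse. The female count was 0 with the fold threshold, 7 with DESeq2, 3 with filterByExpr, 6 in the compared groups alone, 3 with no robust estimation, 4 with the number range and 2 without the high-Ttr mice. The male count was 1 with the fold threshold, 4 with DESeq2, 7 in the compared groups alone and 6 with the number range. Collagens higher in KQ than Myc numbered 0 to 12 in females and 0 to 3 in males on leaving out 1 mouse. The female count was 2 with the fold threshold, 16 with DESeq2, 9 with filterByExpr, 1 in the compared groups alone, 8 with no robust estimation, 13 with the number range, 1 with the choroid plexus score, 1 with the fibroblast score and 0 without the high-Ttr mice. The male count was 6 with DESeq2, 2 with its size factors, 2 with filterByExpr, 4 in the compared groups alone, 2 with no robust estimation, 7 with the number range and 2 with the fibroblast score.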
